A study of Mus musculus with 32 samples.

Results

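Rsad2, Isg15 and Oas3 are 3 interferon-stimulated genes whose transcripts were lower in mouse blood after X-rays, while many other interferon-stimulated genes were higher. They were chosen from that contrast in wild-type mice, as the genes named Rsad2, Isg15 or Oas3 on the array, out of 15159 genes tested. The array carried 4 probes for them (1 for Rsad2, 2 for Isg15 and 1 for Oas3) among 39429 non-control probes, and all 4 passed the filter on dim probes. Because the wild-type contrast picked the genes, their wild-type differences are given as a description with no test. The tests of irradiation and genotype rest on differences between mice of the other genotypes. Permutation tests of their correlations with other interferon-stimulated genes use deviations from group means on all 32 arrays, wild-type ones included. The genes were chosen with earlier results of these data known, so those tests may not be fully independent of the choice.

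The series measured gene expression in whole blood of 32 male C57BL/6 mice with 1 Agilent 1-colour array per mouse. The groups were wild type (WT) at 8 Gy (n = 5) and at 0 Gy (n = 6), ATM-/- (here Atm) at 4 Gy (n = 6) and at 0 Gy (n = 5), and Scid, 5 mice each at 3 Gy and at 0 Gy. All mice, sham-treated ones included, were bled by cardiac puncture 24 h after exposure, and all RNA was depleted of globin transcripts. Each genotype received the dose that the series describes as its LD50/30, so genotype and dose change together and cannot be told apart. ATM is the kinase that signals DNA double-strand breaks, and the Scid mutation disables Prkdc, a kinase of DNA end joining, so both strains repair or signal such breaks poorly in every cell.

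Interferons bind receptors that activate a transcription factor complex, which binds the interferon-stimulated response element in the promoters of its targets. Rsad2 encodes viperin, a radical SAM enzyme that makes a chain-terminating nucleotide against viral polymerases. Isg15 encodes a ubiquitin-like protein that is secreted or joined to other proteins. Oas3 encodes an oligoadenylate synthetase that senses long double-stranded RNA and makes short adenylate chains that act as an antiviral signal. In the comparison genes, Slc4a1 encodes the anion exchanger of the red cell membrane and Epb42 a protein that binds it. Both are made in red cell precursors, and their transcripts persist in reticulocytes.

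The 250 bases upstream of the RefSeq start (build GRCm38.p6, 5′ to 3′ on the gene's strand) are shown for matches to the response element, with Epb42 for comparison. Capitals mark the core of that element, GAAA-NN-GAAA with N any base, searched on both strands, and in Oas3 and Epb42 also AGATAA, a form of the site bound by GATA factors. All 4 genes lie on the minus strand, Rsad2 at chr12:26456453-26456702, Isg15 at chr4:156200819-156201068, Oas3 at chr5:120777660-120777909 and Epb42 at chr2:121036878-121037127.
Rsad2: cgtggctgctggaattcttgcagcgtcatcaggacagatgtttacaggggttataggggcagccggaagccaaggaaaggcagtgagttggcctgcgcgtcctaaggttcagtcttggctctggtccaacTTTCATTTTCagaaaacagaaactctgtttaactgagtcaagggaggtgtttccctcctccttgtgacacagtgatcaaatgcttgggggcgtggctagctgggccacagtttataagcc
Isg15: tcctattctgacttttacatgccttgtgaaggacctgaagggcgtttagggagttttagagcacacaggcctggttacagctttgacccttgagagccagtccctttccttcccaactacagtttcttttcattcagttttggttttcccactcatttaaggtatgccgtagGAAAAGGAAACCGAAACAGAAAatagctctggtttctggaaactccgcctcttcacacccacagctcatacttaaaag
Oas3: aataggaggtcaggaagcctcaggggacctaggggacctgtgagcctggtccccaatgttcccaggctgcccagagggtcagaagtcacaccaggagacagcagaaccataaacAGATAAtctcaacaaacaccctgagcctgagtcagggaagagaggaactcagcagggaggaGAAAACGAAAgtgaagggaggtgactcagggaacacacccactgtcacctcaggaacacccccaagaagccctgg
Epb42: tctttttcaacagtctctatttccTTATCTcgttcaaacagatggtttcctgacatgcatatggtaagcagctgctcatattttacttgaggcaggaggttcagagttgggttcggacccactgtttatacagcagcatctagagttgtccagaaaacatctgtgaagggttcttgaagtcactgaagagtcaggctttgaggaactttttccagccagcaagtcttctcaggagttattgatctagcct
The core occurred once in Rsad2 (on the opposite strand, 120 to 111 bases before the start), 3 times with overlaps in Isg15 (between 78 and 57 bases before it) and once in Oas3 (75 to 66 bases before it), and these letters were not in the Epb42 window. It was present in 2.98% of 32851 RefSeq promoters of this length. Among other interferon-stimulated genes, the same window of Ifit3, which was higher in WT, held 2 matches and that of Cmpk2 held 0. AGATAA occurred in Oas3 at 136 to 131 bases before the start and in Epb42 on the opposite strand at 226 to 221 bases, and was present in 9.99% of those promoters. The matches describe letters in the sequence and not bound sites.

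The levels were read by 60-base probes, of which the first 30 bases are shown to identify the transcript measured (positions in mm9, minus strand). The Rsad2 probe lies at chr12:27127859-27127918, the Isg15 probe used for the gene, of the higher mean signal, at chr4:155573649-155573708 and the Oas3 probe at chr5:121203598-121203657. For the second Isg15 probe the files list only 20 bases, at chr4:155573533-155573552.
Rsad2 probe: tgtttggagtttggagtctaatggttgcat
Isg15 probe used for the gene: ggaccagtgtgcctaaggcccccatccaga
Isg15 second probe: tgtagacacgcttaagaagaaggtgtccag
Oas3 probe: actagacaccctaggaaccagacatctcta

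Levels are log2 processed signals less the array's own 75th percentile, so 0 is the 75th percentile of that array. That percentile was a signal of 126.9 to 232.1 in WT 8 Gy, 24.1 to 202.6 in WT 0 Gy, 17.7 to 111.5 in Atm 4 Gy, 28.1 to 95.8 in Atm 0 Gy, 20.2 to 63.8 in Scid 3 Gy and 17.1 to 60.5 in Scid 0 Gy. Between 19.6 and 59.3% of probes per array were well above background. The arrays were scanned on 4 days that held 15, 12, 4 and 1 arrays. Day 1 held 4 of the 5 Atm 0 Gy and 4 of the 5 Scid 0 Gy arrays. Day 2 held 4 of the 6 Atm 4 Gy arrays and no Atm 0 Gy array. Scan day and irradiation were thus partly confounded. On 4 arrays (WT 8 Gy replicates 1 and 2, WT 0 Gy replicate 5 and Atm 4 Gy replicate 3) liver transcripts were bright, with a list median of up to 9.82. The precision of every value is limited by the 5 or 6 arrays per group.

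Rsad2 was the most reduced of the 3 genes in irradiated WT blood. Its level was 4.33, 3.60, 4.66, 5.29 and 5.79 on the 5 WT 8 Gy arrays, against a lowest of 6.99, a median of 8.86 and a highest of 9.73 on the 6 WT 0 Gy arrays. Every irradiated array lay below every control array, as for 3.85% of 15030 genes in WT. The means were 4.73 ± 0.85 (SD, n = 5) in WT 8 Gy and 8.57 ± 1.1 (SD, n = 6) in WT 0 Gy, a log2 difference of -3.83 ± 0.54 (SE), or a 14.3-fold lower level. Of the 15159 genes, 27 (0.178%) had a WT difference as low or lower.

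In Atm blood Rsad2 ranged from a lowest of 5.21 over a median of 6.36 to a highest of 7.99 on the 6 Atm 4 Gy arrays, against 8.52, 8.01, 8.81, 8.13 and 8.11 on the Atm 0 Gy arrays. The 2 groups did not overlap, which held for 1.68% of 15084 genes. In Scid blood it was 6.93, 7.58, 5.36, 7.41 and 7.13 at 3 Gy, against 9.39, 9.68, 9.23, 8.79 and 6.71 at 0 Gy. Here the groups overlapped through replicate 5 of Scid 0 Gy, and all 5 irradiated arrays lay below the control median.

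The fall of Rsad2 was tested as the mean of the Atm and the Scid responses, which uses no WT level. It was -1.86 ± 0.39 on the log2 scale (limma, adjusted p = 0.0039), a 3.62-fold lower level with a 95% interval of the log2 difference from -2.65 to -1.06. Lower calls made up 3.62% of the genes in this comparison (548 of 592 calls were lower, against 356 of 630 with arrays scaled to the probes detected on all of them). Within Atm alone the difference was -1.84 ± 0.54 (limma, adjusted p = 0.102), and within Scid alone it was -1.88 ± 0.56 (limma, adjusted p = 0.105). Lower calls made up 0.165% of genes in Atm and 1.01% in Scid. Without Atm 4 Gy replicate 1 the Atm difference was -2.14 (limma, adjusted p = 0.0351), and without Scid 0 Gy replicate 5 the Scid difference was -2.39 (limma, adjusted p = 0.00879).

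Oas3 was likewise lower in irradiated than in sham-treated WT blood. Its level was -0.63, -1.45, -0.25, -0.63 and -0.03 on the WT 8 Gy arrays, against a lowest of 0.62, a median of 2.28 and a highest of 3.09 on the WT 0 Gy arrays. No irradiated WT array reached the lowest control, as for 3.85% of 15030 genes. The means were -0.60 ± 0.54 (SD, n = 5) in WT 8 Gy and 2.02 ± 0.89 (SD, n = 6) in WT 0 Gy, a log2 difference of -2.61 ± 0.48 (SE), or a 6.12-fold lower level. The probe was well above background on every array except replicate 5 of Scid 0 Gy.

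Oas3 ranged from -0.33 over a median of 0.61 to 1.73 in Atm 4 Gy, against 2.17, 2.49, 1.73, 2.55 and 2.33 in Atm 0 Gy. Of the 6 irradiated Atm arrays, 5 lay below every control. In Scid it was 0.54, 1.14, -0.50, 0.34 and 0.01 at 3 Gy, against 2.97, 3.23, 2.32, 2.06 and -0.21 at 0 Gy, where replicate 5 was again the low control. The mean of the Atm and Scid responses was -1.73 ± 0.35 (limma, adjusted p = 0.00263), a 3.33-fold lower level with a 95% interval from -2.45 to -1.02. The difference was -1.70 ± 0.48 in Atm (limma, adjusted p = 0.0924) and -1.77 ± 0.50 in Scid (limma, adjusted p = 0.0792). Without Atm 4 Gy replicate 1 the Atm difference was -1.94 (limma, adjusted p = 0.035). Without Scid 0 Gy replicate 5 the adjusted p was 0.0365 in Atm, at the same difference, and the Scid difference was -2.34 (limma, adjusted p = 0.002).

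The called falls of Rsad2 and Oas3 in the mean of Atm and Scid were lost when the scan day was taken as a block, at -1.41 (limma, adjusted p = 0.108) for Rsad2 and -1.20 (limma, adjusted p = 0.0928) for Oas3. They were also lost with the slide as a block, at -1.53 (limma, adjusted p = 0.0726) for Rsad2 and -1.32 (limma, adjusted p = 0.0632) for Oas3, and with normexp background correction. Within scan days, Rsad2 differed between irradiated and control arrays by -0.38 (1 against 4 arrays) and -2.90 (1 against 1) in Atm, and by -2.02 (2 against 4) and -0.32 (2 against 1) in Scid. Oas3 differed by -0.50 and -1.65 on those Atm days and by -1.80 and 0.13 on those Scid days, and the single Scid control behind the last value of each gene was replicate 5. In WT the within-day differences were -4.34 (1 against 3) and -3.43 (3 against 2) for Rsad2 and -2.93 and -2.24 for Oas3. The 4 Atm 4 Gy arrays of day 2 had no Atm control on their day and enter none of the within-day Atm values.

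Isg15 separated the irradiated from the sham-treated mice in WT, and was not called in Atm or Scid. Its level was 5.51, 5.13, 5.61, 5.37 and 6.34 on the WT 8 Gy arrays, against a lowest of 6.51, a median of 8.13 and a highest of 9.04 on the WT 0 Gy arrays. The groups did not overlap, as for 3.85% of 15030 genes in WT. The means were 5.59 ± 0.46 (SD, n = 5) in WT 8 Gy and 7.92 ± 0.90 (SD, n = 6) in WT 0 Gy, a log2 difference of -2.32 ± 0.52 (SE), or a 5.01-fold lower level. The second Isg15 probe showed no overlap either, by a narrow margin. Its highest WT 8 Gy level was 2.29 and its lowest WT 0 Gy level was 2.35. Its means were 1.44 ± 0.51 (SD, n = 5) in WT 8 Gy and 3.46 ± 0.91 (SD, n = 6) in WT 0 Gy. Before scaling, the processed signals overlapped for both probes. The probe used for the gene reached 10568.5 in WT 8 Gy, against a lowest of 9130.8 in WT 0 Gy. The second probe reached 619.5 in WT 8 Gy, against a lowest of 350.4 in WT 0 Gy. The separation of Isg15 was thus seen in the scaled levels and not in the unscaled signals. Within scan days the WT difference of Isg15 was -2.71 and -2.08.

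In Atm blood Isg15 ranged from 5.11 over a median of 7.10 to 8.77 at 4 Gy, against 8.33, 7.72, 7.76, 8.17 and 6.79 at 0 Gy. Only 2 of the 6 irradiated arrays lay below every control, and 1 lay above every control. In Scid blood it was 7.09, 8.92, 6.81, 7.30 and 7.67 at 3 Gy, against 8.88, 8.91, 7.53, 7.50 and 9.43 at 0 Gy. The mean of both responses was -0.76 ± 0.37 (limma, adjusted p = 0.323) with a 95% interval from -1.52 to 0.0044. The Atm difference was -0.62 ± 0.52 (limma, adjusted p = 0.714), and the Scid difference was -0.89 ± 0.54 (limma, adjusted p = 0.636). Within scan days Isg15 differed by 0.77 and 1.35 in Atm and by -0.20 and -2.38 in Scid.

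**Figure D1:**
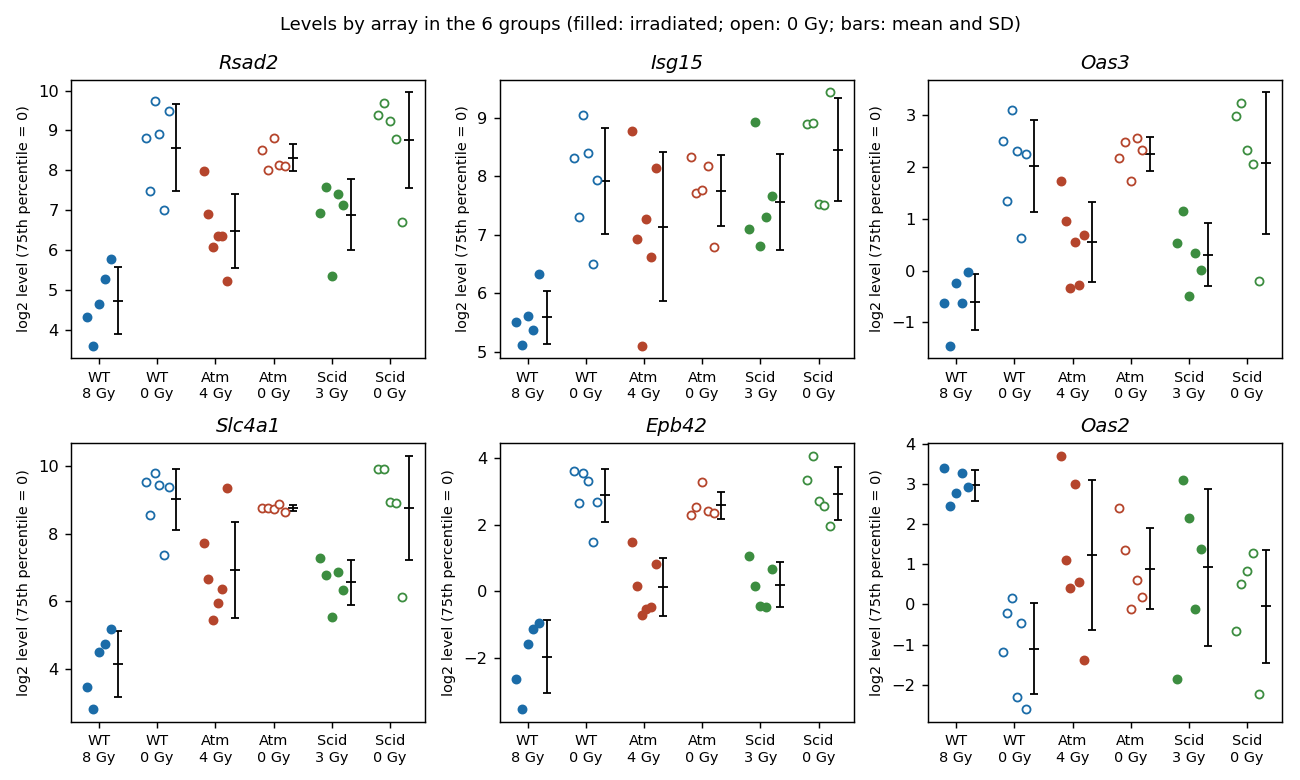
Log2 level (75th percentile of the array = 0) of Rsad2, Isg15, Oas3, Slc4a1, Epb42 and Oas2 on each array in the 6 groups, with filled points for irradiated and open points for 0 Gy mice, and mean and SD beside them. In WT the irradiated points of the first 5 genes all lie below the control points, and those of Oas2 all lie above them.

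Ordered by mean level, Rsad2 was highest in Scid 0 Gy (8.76 ± 1.19), then WT 0 Gy (8.57 ± 1.1), Atm 0 Gy (8.32 ± 0.34), Scid 3 Gy (6.88 ± 0.89), Atm 4 Gy (6.48 ± 0.92) and WT 8 Gy (4.73 ± 0.85), with the SD over 5 or 6 mice. Neighbours were apart by more than the larger of their SDs at 2 places, between Atm 0 Gy and Scid 3 Gy and between Atm 4 Gy and WT 8 Gy. Oas3 was highest in Atm 0 Gy (2.25 ± 0.33), then Scid 0 Gy (2.07 ± 1.36), WT 0 Gy (2.02 ± 0.89), Atm 4 Gy (0.55 ± 0.78), Scid 3 Gy (0.31 ± 0.61) and WT 8 Gy (-0.60 ± 0.54). Its neighbours were apart by that measure between WT 0 Gy and Atm 4 Gy and between Scid 3 Gy and WT 8 Gy. Isg15 was highest in Scid 0 Gy (8.45 ± 0.88), then WT 0 Gy (7.92 ± 0.90), Atm 0 Gy (7.75 ± 0.60), Scid 3 Gy (7.56 ± 0.82), Atm 4 Gy (7.14 ± 1.27) and WT 8 Gy (5.59 ± 0.46). Only the step down to WT 8 Gy exceeded the larger SD. The 3 sham-treated groups were no further apart than the larger SD for any member, and irradiated WT mice had the lowest mean of each.

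Scid and Atm blood at 0 Gy differed by 0.44 ± 0.56 in Rsad2, 0.70 ± 0.54 in Isg15 and -0.18 ± 0.50 in Oas3, and no difference was called (limma, adjusted p = 0.723, 0.616 and 0.878). Calls made up 0.125% of the genes in that comparison. The Scid response less the Atm response was -0.04 for Rsad2 (95% interval -1.63 to 1.55), -0.28 for Isg15 (-1.80 to 1.24) and -0.07 for Oas3 (-1.49 to 1.36). These intervals leave room for differences between the 2 responses of over 1 log2 unit either way. No gene at all was called there by limma (0.0% of genes), and 638 had an unadjusted p under 0.05.

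The erythroid pair fell alongside. Slc4a1 was at 3.45, 2.81, 4.51, 4.74 and 5.16 in WT 8 Gy, against a lowest of 7.38, a median of 9.41 and a highest of 9.79 in WT 0 Gy, a log2 difference of -4.88 ± 0.61. Epb42 was at -2.62, -3.53, -1.57, -1.13 and -0.94 in WT 8 Gy, against a lowest of 1.49, a median of 3.00 and a highest of 3.62 in WT 0 Gy, a log2 difference of -4.85 ± 0.47. Both differences exceed that of any member. In the mean of Atm and Scid, Slc4a1 fell by 2.02 ± 0.44 (limma, adjusted p = 0.0054) and Epb42 by 2.59 ± 0.34 (limma, adjusted p = 5.69e-05). By the probe read for the gene, Epb42 did not overlap between irradiated and control mice in any of the 3 genotypes, as for 2.22% of 15089 genes in Scid. A second, dimmer Epb42 probe did not overlap in WT but overlapped in the other genotypes, where 4 of 6 Atm and 4 of 5 Scid irradiated arrays lay below every control. It averaged -2.25 ± 1.76 (SD, n = 6) in Atm 4 Gy and -0.53 ± 0.48 (n = 5) in Atm 0 Gy, and -2.69 ± 0.92 (n = 5) in Scid 3 Gy and -0.23 ± 1.24 (n = 5) in Scid 0 Gy. It was well above background on 0 of 5 WT 8 Gy, 2 of 6 Atm 4 Gy and 0 of 5 Scid 3 Gy arrays.

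Within the single genotypes Slc4a1 did not pass, at -1.84 ± 0.61 in Atm (limma, adjusted p = 0.156) and -2.20 ± 0.64 in Scid (limma, adjusted p = 0.0856), and 1 Atm 4 Gy array lay above every Atm control. Within scan days Slc4a1 differed by -1.06 and 0.73 in Atm and by -2.39 and 0.068 in Scid, on the same days and arrays as given for Rsad2. Epb42 differed by -1.17 and -1.53 on those Atm days and by -2.55 and -2.41 on those Scid days.

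Of 48 erythroid genes, 26 were called lower and 0 higher in the mean of Atm and Scid, against 3.62% lower and 0.29% higher over all genes. The list's median change was -1.16, and that of all genes was -0.07. Ank1, the ankyrin of the red cell membrane, changed by -2.69 ± 0.55 (limma, adjusted p = 0.00328). In WT, 33 of the 48 were called lower (6.07% of all genes), with a median of -2.60. The median level of the list per array was 1.31 to 2.46 in WT 8 Gy and 2.73 to 4.65 in WT 0 Gy, 1.92 to 3.56 in Atm 4 Gy and 3.37 to 4.17 in Atm 0 Gy, and 2.66 to 3.53 in Scid 3 Gy and 3.74 to 4.99 in Scid 0 Gy. In Atm alone 3 of the 48 were called lower (0.165% of all genes), and in Scid alone 13 (1.01% of all genes). The list medians of irradiated and control arrays overlapped in Atm and did not in WT or Scid, and the part of red cell transcripts in the fall of the members was not tested. In whole blood, fewer cells of a type and less RNA per cell cannot be told apart.

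The other interferon-stimulated genes did not fall as a group. Of 56 listed genes (the members left out), 53 were tested, and in WT 17 were called higher and 2 lower (1.13% and 6.07% of all genes), with a median of 1.14 against -0.02 over all genes. The 2 lower ones were Isg20, an exonuclease, and Ube2l6. The members were picked because they fell while other interferon-stimulated genes rose. These WT counts therefore describe that choice and are no test of it. In the mean of Atm and Scid 0 were called higher and 0 lower by limma, and the list's median was 0.16 against -0.07 over all genes. The list's median level per array was 1.31 to 2.17 in WT 8 Gy and -0.14 to 0.65 in WT 0 Gy. It was -0.54 to 2.75 in Atm 4 Gy and 0.18 to 1.42 in Atm 0 Gy, and -0.0025 to 2.09 in Scid 3 Gy and -0.82 to 0.78 in Scid 0 Gy.

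The nearest relatives of the members in function or position moved differently in WT. Oas3 lies between Oas2 and Oas1e in the RefSeq order, in a cluster of synthetase genes. Oas2 was at 3.41, 2.45, 2.77, 3.28 and 2.93 in WT 8 Gy, against a mean of -1.10 ± 1.14 (SD, n = 6) in WT 0 Gy, a log2 difference of 4.07 ± 0.80, opposite in sign to Oas3. Oas1a differed by 3.08 ± 0.65, Oasl1 by 2.12 ± 0.72, Oasl2 by 1.29 ± 0.68 and Oas1b by -0.27 ± 0.24. Cmpk2, a mitochondrial nucleotide kinase next to Rsad2, differed by 0.67 ± 0.57, with overlapping groups, and by 0.029 ± 0.67 on a second probe. Rsad2 differed by -3.83 beside it.

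For Isg15, the genes that attach or remove the protein were compared next. Uba7, the activating enzyme, differed in WT by 0.26 ± 0.48, Herc6, a ligase in mice, by 0.44 ± 0.45, and Usp18, which removes Isg15, by 1.16 ± 0.55. Ube2l6, the conjugating enzyme, differed by -1.86 ± 0.43, with means of 9.0 ± 0.80 (SD, n = 5) in WT 8 Gy and 10.86 ± 0.92 (SD, n = 6) in WT 0 Gy, and was the only one of the 4 with a difference below 0. In the mean of Atm and Scid the Ube2l6 difference was -0.68 ± 0.31 (limma, adjusted p = 0.275). Of the 16 genes beside the members in function or position, 15 were tested, and in that mean 0 were called higher and 0 lower by limma. In it, Cmpk2 differed by -0.07 ± 0.42 (limma, adjusted p = 0.965) and Oas2 by 0.66 ± 0.58 (limma, adjusted p = 0.649).

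**Figure D2:**
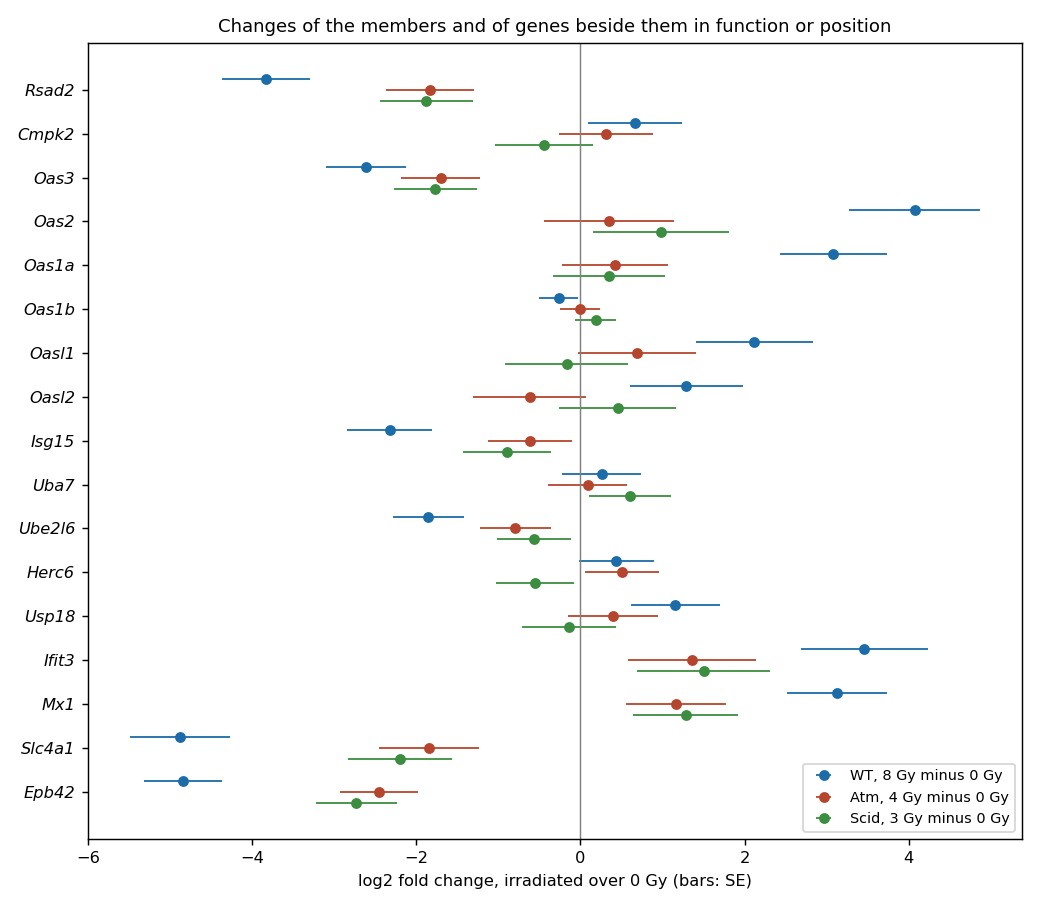
Log2 fold change of irradiated over 0 Gy mice with its SE, for the members, their relatives and the erythroid pair, in WT (8 Gy), Atm (4 Gy) and Scid (3 Gy). Rsad2 and Oas3 lie left of 0 in all 3 genotypes, at -3.83 and -2.61 in WT, while Oas2 lies at 4.07 in WT.

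Whether the members followed erythroid transcripts between mice of the same group was measured with the deviation of each array from its group mean, over 32 arrays. This removes the differences between groups. Oas3 and Slc4a1 correlated with Pearson r = 0.81 and Spearman rho = 0.80, and Oas3 and Epb42 with r = 0.71 and rho = 0.70. Rsad2 and Slc4a1 correlated with r = 0.61 and rho = 0.70, and Rsad2 and Epb42 with r = 0.66 and rho = 0.67. The arrays share their normalization and brightness. The members were chosen for their relation to these erythroid genes, so these values are a description and no test of them is given.

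For Isg15, the r with Slc4a1 was 0.46 with rho = 0.54, and the r with Epb42 was 0.55 with rho = 0.53. Leaving out the 2 arrays with the most extreme Slc4a1 deviation, Atm 4 Gy replicate 6 and Scid 0 Gy replicate 5, gave r = 0.81 for Rsad2, 0.65 for Isg15 and 0.85 for Oas3. These 2 arrays were the dimmest of the series, with a 75th percentile of 17.7 and 17.1. On them 19.6 and 24.7% of probes were well above background. On Atm 4 Gy replicate 6 Slc4a1 was at 9.36, the highest of its group, while Rsad2 was at 5.21, the lowest of its group. Leaving out the 2 most extreme Epb42 arrays gave r = 0.59, 0.49 and 0.67 for Rsad2, Isg15 and Oas3.

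Without Scid 0 Gy replicate 5 alone, r was 0.47 between Rsad2 and Slc4a1 and 0.72 between Isg15 and Slc4a1. Without the 4 liver-bright arrays Rsad2 had r = 0.49 with Slc4a1 and 0.54 with Epb42, and Isg15 had r = 0.42 with Epb42. Scaled to the percentile of probes detected on all arrays, r was 0.53 between Rsad2 and Slc4a1 and 0.34 between Isg15 and Epb42. Oas3 kept an r of 0.72 to 0.91 with Slc4a1 and 0.66 to 0.76 with Epb42 over omissions of 1 array.

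The same was computed against 3 interferon-stimulated genes that were higher in WT. Permutations were drawn within groups, two-sided, and adjusted over 15 pairs, which include those with Slc4a1 and Epb42. Including pairs chosen for their relation can make the adjustment of the other pairs milder. With Oas2, r was 0.28 for Rsad2, 0.12 for Isg15 and 0.30 for Oas3, and none passed (adjusted permutation p = 0.216, 0.685 and 0.202). Other scalings changed this. With Oas2, spike-in scaling gave r = 0.57 for Rsad2, 0.47 for Isg15 and 0.62 for Oas3 (adjusted permutation p = 0.0115, 0.041 and 0.0066). Scaling to the array median gave 0.51 for Rsad2 and 0.55 for Oas3 (adjusted permutation p = 0.0284 and 0.0132), and normexp gave 0.42 for Rsad2 and 0.57 for Isg15 (adjusted permutation p = 0.0366 and 0.00681). With Mx1, a GTPase that blocks viral replication, r was 0.01 for Rsad2, 0.41 for Isg15 and 0.07 for Oas3, and none passed (adjusted permutation p = 0.957, 0.116 and 0.78). With Mx1, Isg15 passed by the array median (r = 0.51, adjusted permutation p = 0.0284) and with spike-ins (r = 0.57, adjusted permutation p = 0.0247), and Rsad2 passed in the opposite direction with normexp (r = -0.40, adjusted permutation p = 0.0366). With Ifit3, which binds in a complex on foreign RNA, r was 0.50 for Isg15 (rho = 0.47, adjusted permutation p of r = 0.044), 0.44 for Oas3 (rho = 0.51, adjusted permutation p of r = 0.0136) and 0.33 for Rsad2 (adjusted permutation p = 0.129). Without Atm 4 Gy replicate 1 and Scid 3 Gy replicate 2, the most extreme Ifit3 arrays, these 3 values were 0.27, 0.31 and 0.16. Over all arrays the unadjusted permutation p of r with Ifit3 was 0.0205 for Isg15 and 0.00546 for Oas3. An adjustment over the pairs with Oas2, Ifit3 and Mx1 alone was not made. The passes given here may therefore depend on the pairs with Slc4a1 and Epb42. The difference between a member's r with the erythroid and with the interferon genes was not tested.

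On those 2 arrays the level of Ifit3 was 3.69 and 3.86, and that of Isg15 was 8.77 and 8.92, in both cases the highest of their group. The interferon list's median was 2.75 and 2.09 there, also the highest of the group. Rsad2 was at 7.99 and 7.58, and Oas3 at 1.73 and 1.14, likewise the highest irradiated values of their genotype.

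**Figure D3:**
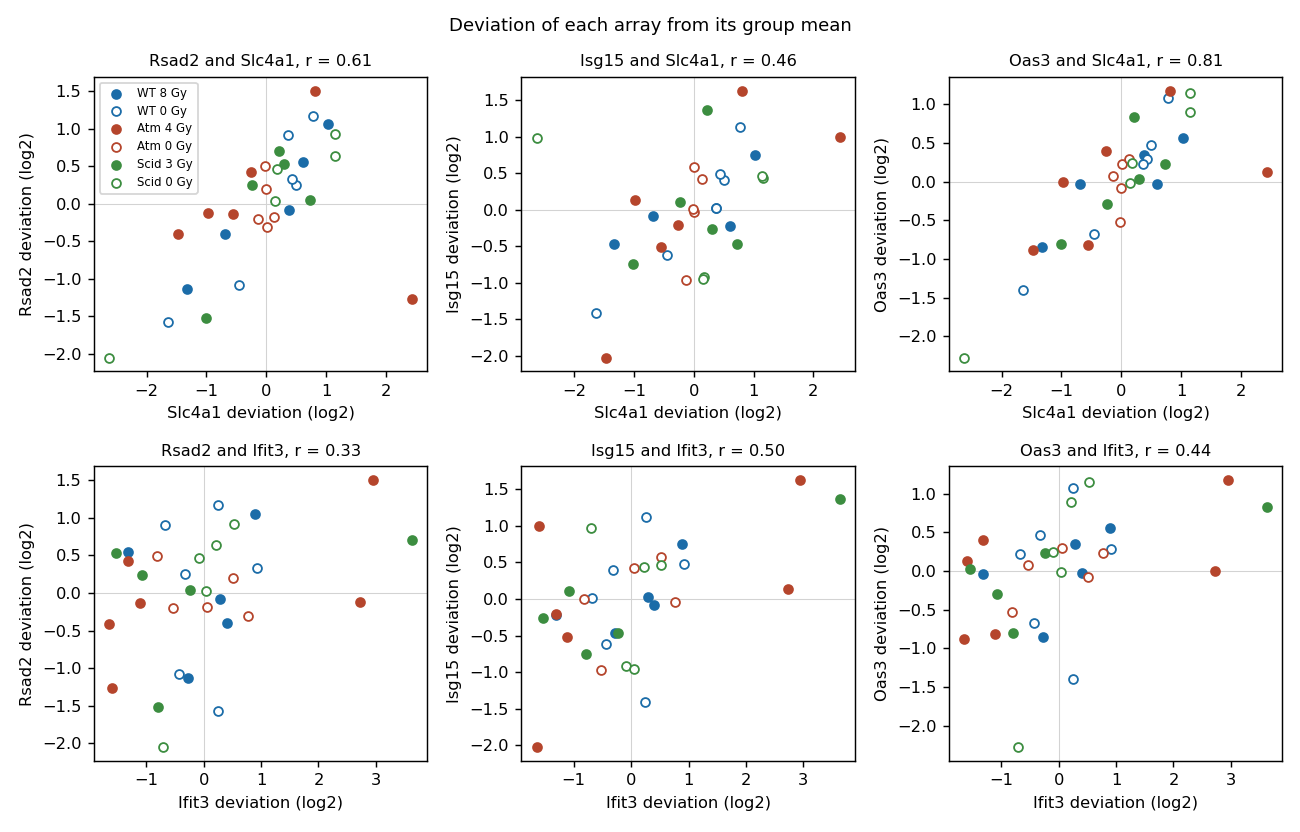
Deviation of each of the 32 arrays from its group mean (log2), for each member (y) against Slc4a1 (upper row) and Ifit3 (lower row), coloured by group. Oas3 and Slc4a1 lie closest to a line (r = 0.81), and the Ifit3 panels have a few irradiated arrays far to the right.

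Over 14898 genes with a value on all 32 arrays, the 5 genes whose deviations were most like those of Rsad2 were Ncoa4, the receptor that delivers ferritin for breakdown (r = 0.92), Sptb, the beta spectrin of red cells (r = 0.90), Riok3, Dazap2 and Slc38a5, an amino acid transporter (r = 0.90 each). For Oas3 they were Ranbp10 (r = 0.92), Specc1 (r = 0.91), Med12, a subunit of Mediator (r = 0.90), Atxn7l1 (r = 0.90) and Rb1, the retinoblastoma gene (r = 0.90). For Isg15 they were Blvrb, a biliverdin reductase (r = 0.91), Foxo3, a transcription factor (r = 0.90), Ube2b, a ubiquitin-conjugating enzyme (r = 0.89), Gstm5 and Gm10731 (r = 0.88 each). The 3 sets of 5 shared no gene, and none of the 15 is on the interferon list. In the mean of Atm and Scid, 7 of the 15 were called lower (3.62% of all genes) and 8 were not called, Sptb, Riok3, Dazap2, Slc38a5, Foxo3, Gm10731, Atxn7l1 and Rb1. Ncoa4 differed by -1.26 ± 0.34 (limma, adjusted p = 0.0275), Med12 by -1.59 ± 0.26 (limma, adjusted p = 0.000382) and Blvrb by -1.36 ± 0.30 (limma, adjusted p = 0.00511). Sptb, close to Rsad2 between mice, differed by -0.14 ± 0.37 (limma, adjusted p = 0.906).

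Among themselves, Rsad2 and Oas3 correlated with r = 0.82, Isg15 and Oas3 with r = 0.48, and Rsad2 and Isg15 with r = 0.38. Only 0.671% of genes were as close to Oas3 as Rsad2 was, while 25.5% were as close to Rsad2 as Isg15 was. The median r with the 48 erythroid genes was 0.58 for Rsad2, 0.48 for Isg15 and 0.61 for Oas3. With the 53 interferon-stimulated genes it was 0.30, 0.36 and 0.35, and with all genes 0.13 for each member. An r above 0.5 was found with 29, 23 and 34 of the erythroid genes for Rsad2, Isg15 and Oas3, and with 12, 14 and 11 of the interferon-stimulated genes. Over all genes the share above 0.5 was 17.3%, 13.1% and 15.0%. A high r did not always go with a fall. In the mean of Atm and Scid, 40 of the 48 erythroid genes had a negative and 8 a positive difference. Among the 8, Tal1, Gata1 and Epor had r = 0.84, 0.83 and 0.82 with Rsad2. They differed by 0.47, 0.37 and 0.60 there, and none was called. Of the relatives, Ube2l6 correlated with r = 0.73 with Rsad2, 0.62 with Isg15 and 0.59 with Oas3, and Cmpk2 with 0.60, 0.65 and 0.60. These values describe 32 arrays, and genes measured on the same arrays are not independent.

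**Figure D4:**
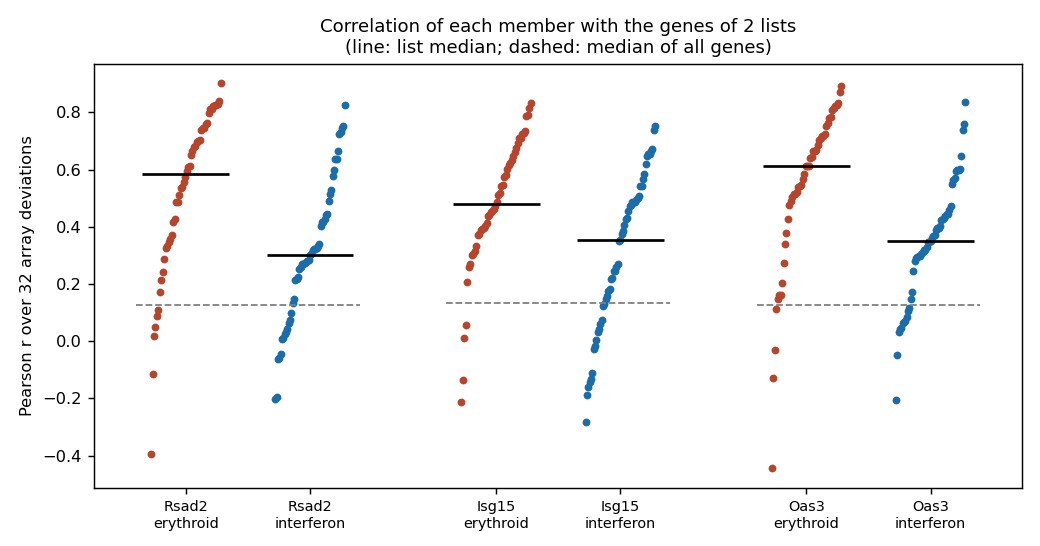
Pearson r of each member's deviations with those of each erythroid (red) and interferon-stimulated (blue) gene over 32 arrays, with the list median as a line and the median of all genes dashed. The erythroid medians (0.58, 0.48 and 0.61) lie above the interferon medians (0.30, 0.36 and 0.35), with wide overlap of the points.

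Markers of white cells and platelets were compared beside these. None of 4 leukocyte, 7 neutrophil or 6 platelet markers tested was called in WT or in the mean of Atm and Scid. Over all genes 6.07% were called lower and 1.13% higher in WT, and 3.62% and 0.29% in that mean. With lists this small, the lack of calls does not show that these markers were unchanged. In that mean 3 of 4 leukocyte and 6 of 7 neutrophil markers had a negative difference, with medians of -0.34 and -0.40. All 6 platelet markers had a positive one, with a median of 0.28. Of 7 monocyte markers, 2 were called higher in WT, and of 6 markers of plasmacytoid dendritic cells, which are major producers of interferon, 1 was (Bst2, itself interferon-stimulated), against 1.13% of all genes. Of those 6 dendritic cell markers, 4 had a negative difference in WT, with a median of -0.21. Of 10 liver markers 6 were tested and of 6 heart muscle markers 4, and none was called. Liver list medians per array ran from -0.15 to 9.82 in WT 8 Gy, -0.10 to 9.82 in WT 0 Gy, -1.50 to 9.01 in Atm 4 Gy, -0.72 to 4.87 in Atm 0 Gy, -0.11 to 2.63 in Scid 3 Gy and -0.21 to 1.21 in Scid 0 Gy. Without the 4 liver-bright arrays the mean Atm and Scid differences of Rsad2 and Oas3 kept their calls, 11 genes were called in Atm (36 with these arrays) and 266 in Scid (162 with them).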

How the data were processed

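Whole blood RNA of 32 mice was hybridised to 1 array each. Per the labels, blood was collected in PAXgene solution and RNA was depleted of globin with GLOBINclear. The authors deposited scanner tables whose processed signal is an intensity per spot, background-subtracted by Agilent Feature Extraction (11.5.1.1 per the file headers, 12.0.2 per the submitters' processing notes). The authors deposited also a matrix of log2 values, which differ from the log2 processed signal by a constant per array (98.5 to 99.4% of values within 0.01), with column medians from 5.51 to 6.44. How that constant was chosen is unknown, and these values served as an alternative.

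Control spots and outlier spots were left out, replicate spots averaged, and log2 signals set to the array's 75th percentile. A probe needed 4 or more arrays of 1 group with a signal well above background to be kept, as 18367 of 39429 were, and a gene was read by its kept probe of highest mean. The 6 group means were fitted on all 32 arrays with limma 3.58.1 in R 4.3.3, with Benjamini-Hochberg adjustment over 15159 genes and calls at an adjusted p under 0.05. The fit was tested on simulated data. Correlations used deviations from group means and 100000 permutations within groups in Python 3.11.15 with scipy 1.17.1. Promoters come from RefSeq (GRCm38.p6) and probe positions from the files (mm9). Signal over background takes the place of depth.

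The members and lists were chosen with earlier results of these data known. The named genes are the members, Slc4a1, Epb42, Oas2, Ifit3, Mx1, 16 relatives, the 5 genes most like each member, and up to 3 of each list. Alternatives changed the scaling, background correction, dim-probe filter, blocks, array weights, the 4 liver-bright arrays or 1 array at a time. Results of some of the relatives are not reported here.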

Additional observations from a re-analysis of the deposited data

Results flagged for a closer look

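In 54 groups of 5 or 6 arrays the highest or lowest array was set against the rest of its group, and 4 stood apart by Dixon's criterion. Chance flags about 1 in 20 groups. The second Isg15 probe was at 1.89 on Atm 0 Gy replicate 5, against 3.17 to 3.68 on the other arrays of that group. Slc4a1 was at 6.13 on Scid 0 Gy replicate 5, against 8.91 to 9.91 on the others, and Rsad2 and Oas3 were the lowest of the group on the same array, at 6.71 and -0.21. On that array Isg15 was the highest of the group, at 9.43, and Oas3 was not well above background. Its 75th percentile, 17.1, was the lowest of the series, and the part of brightness in these values was not tested. Epb42 was at 3.30 on Atm 0 Gy replicate 3, against 2.31 to 2.53 on the others. Ifit3 was at 3.86 on Scid 3 Gy replicate 2, against -1.31 to -0.01 on the others, and Isg15 was the highest of the group there, at 8.92.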

How the results depend on the processing

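The direction of each member's irradiation difference was the same under each of the 12 to 14 other settings that gave a value and each omission of 1 array, in WT, Atm, Scid and the mean of Atm and Scid. Without 1 array that mean ran from -2.11 to -1.67 for Rsad2, -0.93 to -0.55 for Isg15 and -2.02 to -1.59 for Oas3, with no change of call. Normexp took it to -2.22 for Rsad2 (limma, adjusted p = 0.473) and -0.88 for Oas3 (0.2), the scan day as a block to -1.41 (0.108) and -1.20 (0.0928), and the slide to -1.53 (0.0726) and -1.32 (0.0632). Spike-in scaling took Isg15 to -1.37 (0.0227), past the threshold. The WT differences of Rsad2, Isg15 and Oas3 were -2.33, -0.88 and -0.96 with normexp and -2.55, -1.04 and -1.33 with spike-ins. Spike-in scaling, on 6 probes, moved the median of all genes to 1.26 in WT, -1.68 in Atm and 0.31 in Scid, and relative to it the WT differences were -3.81, -2.30 and -2.59. Relative to the median of all genes under each of 12 or 13 settings, the WT differences ran from -4.21 to -2.37, -2.37 to -0.92 and -2.64 to -0.997, and those in the mean of Atm and Scid from -2.22 to -1.34, -0.93 to -0.29 and -2.01 to -0.88. For Isg15 in Atm alone the relative difference ran from -0.96 to -0.0001, the last with the scan day as a block. Oas3 gave no value with only probes detected on all arrays.

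Counts of called genes by limma, in the mean of Atm and Scid, were 592, with 910 in the authors' values, 106 by scan day, 328 unfiltered, 0 with normexp (697 at an unadjusted p under 0.05), 111 by slide, 1438 with spike-ins, 1667 with array weights and 419 to 911 without 1 array (911 without Scid 0 Gy replicate 5). In Atm they were 36, with 110 for probes detected on all arrays, 184 by array median, 342 in the authors' values, 0 by scan day and by slide (1061 and 937 unadjusted), 11 without the liver-bright arrays, 7 unfiltered, 1 with normexp, 108 by the percentile of detected probes, 10942 with spike-ins, 546 with weights and 2 to 274 without 1 array. In Scid they were 162, with 247 for probes detected on all arrays, 375 in the authors' values, 69 by scan day, 266 without the liver-bright arrays, 54 unfiltered, 0 with normexp and with spike-ins (338 and 665 unadjusted), 85 by slide, 1230 with weights and 43 to 403 without 1 array. Between Scid and Atm at 0 Gy they were 19, with 1 for probes detected on all arrays, 1636 with weights, 0 to 204 without 1 array and 0 by array median, authors' values, normexp, percentile of detected probes, quantiles, slide, spike-ins, no filter and without the liver-bright arrays. The difference of responses had 0, and 5819 with spike-ins.

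Lower calls in the mean of Atm and Scid were 548 of 592, 356 of 630 by the percentile of detected probes. Small differences that changed sign were, for Scid against Atm at 0 Gy, -0.19 for Rsad2 with spike-ins and, for Oas3, 0.11 with normexp, 0.0886 by slide, 0.50 with weights and -0.47 to 0.39 without 1 array. For the difference of responses they were 0.42 (Rsad2) and 0.13 (Isg15) with normexp, 0.05 (Oas3) with quantiles, and 1.77, 1.54 and 1.75 (Rsad2, Isg15, Oas3) with spike-ins. Without 1 array these ran from -0.56 to 0.34, -0.68 to 0.0478 and -0.64 to 0.22.

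Among the correlations, r of Rsad2 with Slc4a1 was 0.53 with the percentile of detected probes, 0.49 without the liver-bright arrays and 0.47 to 0.91 without 1 array, and with Epb42 0.54 without the liver-bright arrays. With Oas2 it was 0.51 by array median, 0.57 with spike-ins and 0.42 with normexp, and with Ifit3 0.48 by array median. With Mx1 it was -0.23 by the percentile of detected probes, -0.0405 with quantiles, -0.40 with normexp, -0.0844 with scan day subtracted, -0.0205 without the liver-bright arrays and -0.18 to 0.16 without 1 array. For Isg15, r with Slc4a1 was 0.45 with spike-ins, 0.83 with normexp and 0.37 to 0.72 without 1 array, and with Epb42 0.34 with the percentile of detected probes and 0.42 without the liver-bright arrays. With Oas2 it was -0.0056 by that percentile, 0.47 with spike-ins, 0.57 with normexp and -0.0304 to 0.25 without 1 array. With Ifit3 it was 0.34 by that percentile, 0.38 with quantiles, 0.44 with scan day subtracted, 0.51 without the liver-bright arrays and 0.39 to 0.60 without 1 array, where 11 omissions lost the call. With Mx1 it was 0.51 by array median, 0.57 with spike-ins and -0.35 with normexp. For Oas3, r with Oas2 was 0.55 by array median and 0.62 with spike-ins. With Ifit3 it was 0.27 by the percentile of detected probes, 0.37 with quantiles, 0.17 with normexp, 0.31 with scan day subtracted and 0.36 to 0.49 without 1 array. With Mx1 it was -0.13 by that percentile, -0.0556 with quantiles, -0.43 with normexp, -0.023 with scan day subtracted and -0.0942 to 0.29 without 1 array. The causes of these changes were not tested.

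Same-numbered arrays of a genotype share only a number, with correlations of their deviations from -0.73 to 0.35. With the replicate number as a block, 618 genes were called in the mean of Atm and Scid, 75 in Atm and 69 between Scid and Atm at 0 Gy.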

Other observations

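Further genes that carry the interferon signal were compared in the same fit. Irf7, the factor that amplifies interferon production, differed by -1.35 ± 0.55 in WT and by -1.07 ± 0.40 in the mean of Atm and Scid (limma, adjusted p = 0.142). Stat2 differed by 1.26 ± 0.55 and Irf9 by 1.37 ± 0.46 in WT. In the mean of Atm and Scid, Stat2 differed by -0.39 ± 0.40 and Irf9 by -0.10 ± 0.34 (limma, adjusted p = 0.71 and 0.93).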
